A study of Mus musculus with 5 samples.

Results

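The mitochondrial carriers of the Slc25 family are described here in epithelial cells of the mouse ileum, across cell types, enterocyte maturity and surgery. The members are the genes whose symbol is Slc25a followed by a number in the deposited gene table, 47 of its 27998 genes. Droplet single-cell RNA sequencing counted transcripts by unique molecular identifiers (UMIs) in cells from the distal small intestine. All mice were C57BL/6 and 8 to 12 weeks old, and underwent either sham surgery (3 libraries) or small bowel resection, in which part of the small intestine is cut out (2 libraries). No transgene, deletion or drug is named for either group, and the labels do not say whether the libraries came from separate or pooled animals. The p-values for surgery therefore measure the spread between these libraries. Those for cell types and maturity measure the spread left once each library's own level is removed.

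The inner mitochondrial membrane is closed to most metabolites, and Slc25 proteins carry nucleotides, phosphate, acids, amino acids, cofactors and metal ions across it. They are nuclear-encoded proteins built of a repeated fold. Most exchange one substrate for another, and a few sit in peroxisomes or in the outer membrane. In the small intestine they link fuel oxidation, citrulline and proline synthesis from glutamate, and haem synthesis to the cytosol of absorptive cells, which mature as they move from the crypt to the villus tip.

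The 5 promoter windows printed here show the DNA upstream of the members that moved most along the villus score described below: Slc25a48, Slc25a22, Slc25a45 and Slc25a36, which were higher at its upper end, and Slc25a17, which was lower. They were picked after their values were seen. Each window is the 250 bases before the RefSeq start in build GRCm38.p6, read 5′ to 3′ on the gene's strand, and capitals mark a match to a searched motif. The windows are chr13:56438105-56438354 (plus strand) for Slc25a48, chr7:141437875-141438124 (minus) for Slc25a22, chr19:5877572-5877821 (plus) for Slc25a45, chr9:97111042-97111291 (minus) for Slc25a36 and chr15:81360766-81361015 (minus) for Slc25a17. Slc25a22 has 3 RefSeq windows, and the one nearest its GENCODE start is shown.
Slc25a48: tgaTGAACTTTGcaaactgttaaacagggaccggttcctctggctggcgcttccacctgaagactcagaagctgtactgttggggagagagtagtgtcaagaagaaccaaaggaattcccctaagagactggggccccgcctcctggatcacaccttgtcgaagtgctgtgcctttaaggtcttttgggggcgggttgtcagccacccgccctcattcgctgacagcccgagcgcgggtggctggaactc
Slc25a22: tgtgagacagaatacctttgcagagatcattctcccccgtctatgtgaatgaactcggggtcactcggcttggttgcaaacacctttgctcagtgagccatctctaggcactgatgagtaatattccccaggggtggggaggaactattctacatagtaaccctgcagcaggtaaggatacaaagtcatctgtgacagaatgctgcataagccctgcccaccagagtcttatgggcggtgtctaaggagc
Slc25a45: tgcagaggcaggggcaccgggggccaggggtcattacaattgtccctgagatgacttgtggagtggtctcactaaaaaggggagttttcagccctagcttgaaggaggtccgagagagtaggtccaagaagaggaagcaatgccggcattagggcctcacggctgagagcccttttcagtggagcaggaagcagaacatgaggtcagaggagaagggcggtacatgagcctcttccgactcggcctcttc
Slc25a36: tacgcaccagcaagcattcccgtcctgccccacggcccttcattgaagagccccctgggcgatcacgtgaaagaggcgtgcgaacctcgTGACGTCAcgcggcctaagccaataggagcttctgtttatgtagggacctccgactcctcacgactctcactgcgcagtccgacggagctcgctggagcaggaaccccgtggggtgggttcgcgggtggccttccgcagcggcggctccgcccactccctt
Slc25a17: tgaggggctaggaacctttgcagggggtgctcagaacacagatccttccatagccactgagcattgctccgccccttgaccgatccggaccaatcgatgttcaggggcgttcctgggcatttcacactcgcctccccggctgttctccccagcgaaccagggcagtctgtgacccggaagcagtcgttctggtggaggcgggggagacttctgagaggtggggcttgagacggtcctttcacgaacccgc

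The capitals in the Slc25a48 window match the hepatocyte nuclear factor 4 motif CAAAGNNCA on the opposite strand, and those in the Slc25a36 window match the cyclic AMP response element TGACGTCA. No searched motif was in the windows shown for Slc25a22, Slc25a45 and Slc25a17, and another Slc25a22 window, which is not shown, holds 2 matches to the SP and KLF motif, which overlap each other. On both strands, 8 motifs were searched in all 32851 RefSeq windows of this length and in the 46 windows of the 36 members that have one. CAAAGNNCA was in 5.49% of all windows and in 2 member windows, and TGACGTCA, added after the Slc25a36 window had been read, was in 1.55% and in 2. The nuclear respiratory factor 1 motif (0.782% of all windows) and the oestrogen-related receptor motif TNAAGGTCA (1.14%) were in 0 member windows. The GA-binding protein motif ACCGGAAG (1.72%) and the GATA motif AGATAA (9.99%) were in 2 each, the CDX motif TTTATNG (9.81%) in 3 and the SP and KLF motif GGGGCGGGG (10.4%) in 4. No matches overlapped in the windows shown, and a match describes letters, not a bound site.

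The libraries held 1402 to 7233 cells and 11749028 to 41281731 UMIs, with medians of 4541 to 6239.5 UMIs per cell. After filtering, 17791 epithelial cells remained. Absorptive cells comprised 11235 enterocyte-like and 3255 immature enterocyte-like cells. The 724 stem-like and 997 cycling-like cells were summed as crypt cells. Secretory and tuft cells numbered 1035 (Paneth-like), 521 (goblet-like) and 24 (tuft-like). No Slc25a gene was used for clustering. Pairs of libraries shared 6 to 47 cell barcodes, beside 5.5 to 39.4 given by library sizes alone. The libraries formed 2 sets in the data, sham 1 with resection 1, and sham 2 and sham 3 with resection 2. Both sets hold both groups, but several clusters were nearly confined to 1 set: of the immature clusters, 1 held 234 cells of sham 1 and 729 of resection 1 among 976, another held 315 sham 3 cells among 332, and of the Paneth-like clusters 1 held 211 cells of sham 1 and 174 of resection 1 among 390. Median mitochondrial shares per library were 11.7% and 13.7% in the first set and 7.24% to 9.19% in the second. All cell type names rest on marker genes.

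Across all epithelial cells the family was carried by a few abundant members. Of 360353 member UMIs, 66.2% came from Slc25a5, a widely expressed ADP/ATP exchanger, and Slc25a3, which imports the phosphate used for ATP synthesis. Counts of 3′ UMIs are not divided by transcript length, so the order of genes is one of counted molecules. Levels are given as scaled CPM, the usual depth-normalised UMI count (CPM), here relative to a library total adjusted by TMM within the libraries of the comparison, so a gene's value differs somewhat between comparisons. Slc25a5 averaged 1194 ± 543 scaled CPM (SD, n = 5) and Slc25a3 739 ± 208. In all, 16 members reached a mean of 20 scaled CPM over all epithelial cells and are called well detected. Of the cells in that sum, 11235 of 17791 were enterocyte-like, so this filter favours members high in them. Slc25a4 reached 20 scaled CPM only in enterocyte-like cells, and Slc25a17 only in immature enterocyte-like cells. Their differences from those classes, and along the villus score, partly follow from that choice, so no p-value is given for them. A further 25 stayed under 20 scaled CPM in every class, 17 of the 27 detected members under 20 lying between 2 and 20 over all epithelial cells. No UMI was counted for 4 members, Slc25a18, Slc25a21, Slc25a41 and Slc25a54.

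**Figure D1:**
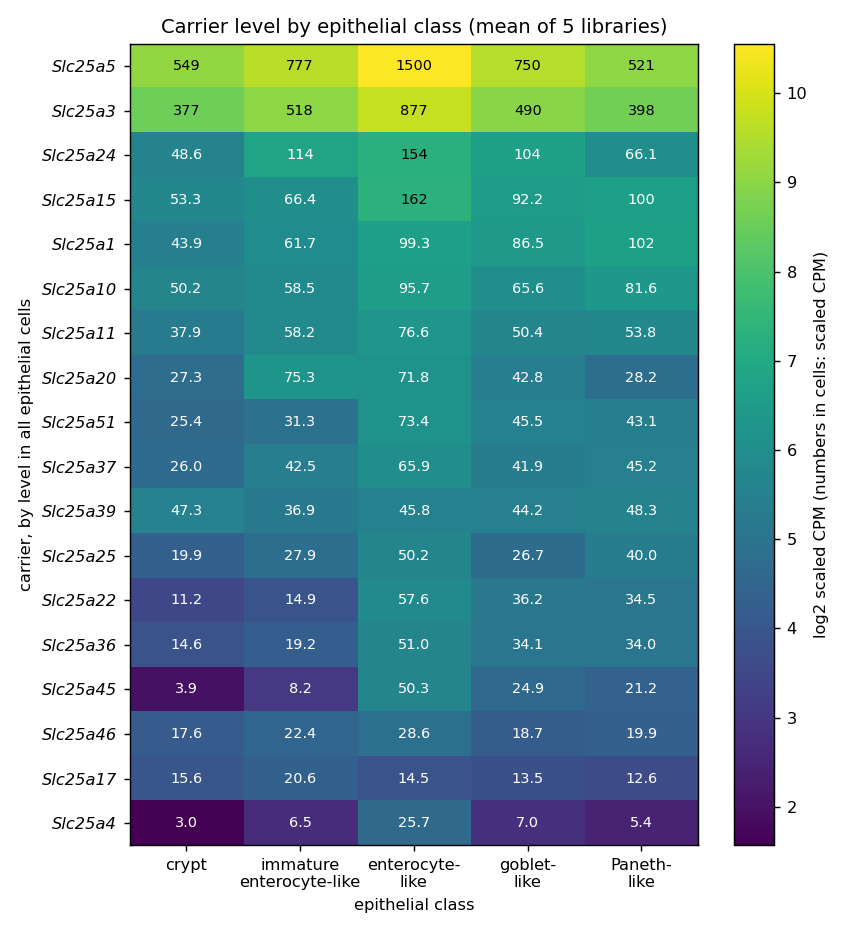
Mean level of the 18 named carriers (rows, ordered by level in all epithelial cells) in 5 epithelial classes (columns); numbers are scaled CPM, the mean of 5 libraries, and colour is the same value on a log2 scale. Slc25a5 was highest in enterocyte-like cells at 1500 scaled CPM, while Slc25a39 lay between 36.9 and 48.3 in all 5 classes.

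Carrier transcripts were higher in enterocyte-like cells than in crypt cells for 15 of the 16 well-detected members, and the remaining one, the glutathione carrier Slc25a39, did not pass the test. Because well-detected members were chosen on a sum made mostly of enterocyte-like cells, their counts and differences lean towards that class, here and in the contrasts below. Of all 47 members 36 passed the low-count filter, 21 were higher and 6 lower, beside 39.8% of 10841 genes higher and 39.8% lower (79.6% in either direction). The median log2 difference was 0.83 over the 36 members and -0.003 over all genes. The 6 lower members were all under 20 scaled CPM, among them, named after their values were seen, Slc25a23, the folate and FAD carrier Slc25a32 and Slc25a26. With RLE scaling the median of all genes moved to -0.23, and 20 members were higher and 9 lower, beside 32.5% and 45.9% of all genes. TMM scaling multiplied CPM by 0.53 to 0.67 in crypt sums and by 0.75 to 0.99 in enterocyte-like sums, so rises before scaling are smaller. Before scaling, Slc25a5 was at 457 to 1181 CPM in crypt and 709 to 2230 in enterocyte-like cells.

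Among adenine nucleotide and phosphate carriers, 5 of 6 tested were higher in enterocyte-like than crypt cells and 1 was lower, beside 39.8% of all genes in each direction. Slc25a5 measured 243, 789, 724, 339 and 650 scaled CPM in crypt cells of sham 1, 2 and 3 and resection 1 and 2, and 533, 2036, 2204, 1159 and 1570 in enterocyte-like cells. Every library was higher in enterocyte-like cells, but sham 1 and resection 1 were the lowest in both classes. The log2 difference was 1.44 ± 0.13 (SE, edgeR adjusted p = 3.0e-12). A processed pseudogene of Slc25a5 is annotated, and reads of near-identical copies may be split by the authors' counting. In enterocyte-like cells the summed CPM of 16 ribosomal protein pseudogenes was 1442 in sham 1 and 557 in resection 1, beside 344 to 493 in the other libraries. Its part in the Slc25a5 difference between sets was not tested.

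Slc25a3 rose from 377 ± 92.4 to 877 ± 212 scaled CPM (SD, n = 5), by 1.22 ± 0.11 on the log2 scale. Slc25a24, an ATP-Mg/phosphate carrier gated by calcium, was at 89.3, 43.0, 30.5, 45.9 and 34.1 in crypt and 196, 160, 149, 144 and 119 in enterocyte-like cells, in the same order of libraries. Its lowest enterocyte value lay above its highest crypt value, with a log2 difference of 1.78 ± 0.13 (edgeR adjusted p = 4.3e-15). Slc25a4, the ADP/ATP exchanger best known from heart and muscle, was at 1.19 to 4.79 in crypt cells and 11, 19.3, 54.3, 20.1 and 23.8 in enterocyte-like cells. Sham 3 stood above the rest, and the log2 difference was 3.14 ± 0.22, in a member named for its level in enterocyte-like cells.

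Among amino acid carriers, 4 of 5 tested were higher in enterocyte-like cells, beside 39.8% of all genes, and Slc25a12, an aspartate/glutamate exchanger, was lower. Slc25a22, which takes glutamate into mitochondria, measured 8.34, 13.7, 7.67, 12.4 and 13.8 scaled CPM in crypt and 64.4, 60.7, 40.2, 72.8 and 50 in enterocyte-like cells. The classes did not overlap, and the log2 difference was 2.27 ± 0.15. Its crypt values lay under 20 scaled CPM, so it counts as well detected through classes where it is higher. No p-value is therefore given for this contrast. Slc25a15 exchanges ornithine and citrulline, a step of citrulline synthesis, and rose by 1.61 ± 0.13 to 162 ± 50.1 scaled CPM.

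All 3 tested carriers of citrate and dicarboxylates rose, beside 39.8% of all genes. The rise was 1.21 ± 0.09 for Slc25a1, which exports citrate, and 0.94 ± 0.12 for Slc25a10. It was 1.06 ± 0.10 for Slc25a11, the oxoglutarate exchanger of the malate-aspartate shuttle. The acylcarnitine carrier Slc25a20, which brings long-chain fatty acids to oxidation, rose by 1.5 ± 0.12 from crypt to enterocyte-like cells. It had already reached that level in immature enterocyte-like cells, 75.3 ± 15.3 scaled CPM beside 71.8 ± 13.6.

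Of 9 cofactor and nucleotide carriers, 2 were higher and 3 lower, beside 39.8% of all genes in each direction. Slc25a51, which imports NAD+, rose by 1.63 ± 0.13, and Slc25a36, a pyrimidine nucleotide carrier, by 1.79 ± 0.15 from 14.6 ± 3.93 scaled CPM. That crypt mean of Slc25a36 is under 20 scaled CPM, so no p-value is given for its rise. Slc25a17, a peroxisomal carrier of CoA and other cofactors, was at 15.6 ± 5.36 in crypt and 14.5 ± 6.37 in enterocyte-like cells, a log2 difference of -0.19 ± 0.16 (edgeR adjusted p = 0.25). Its call was gained with RLE scaling (-0.43) and without sham 3 (-0.58).

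Slc25a45, whose substrate is less settled, had the largest rise of the well-detected members. It measured 2.38, 4.01, 1.76, 5.26 and 6.11 scaled CPM in crypt, 7.43, 8.31, 5.66, 10.3 and 9.50 in immature, and 42.0, 44.7, 32.0, 70.2 and 62.5 in enterocyte-like cells. The 3 classes overlapped only between crypt and immature cells, where the highest crypt value lay above the lowest immature one. The log2 difference from crypt was 3.64 ± 0.14. Its crypt and immature values lay under 20 scaled CPM, so it counts as well detected through classes where it is higher. No p-value is therefore given for this difference. The iron carrier Slc25a37 and the outer membrane member Slc25a46, which takes part in mitochondrial shape, rose by 1.46 ± 0.12 and 0.71 ± 0.12.

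**Figure D2:**
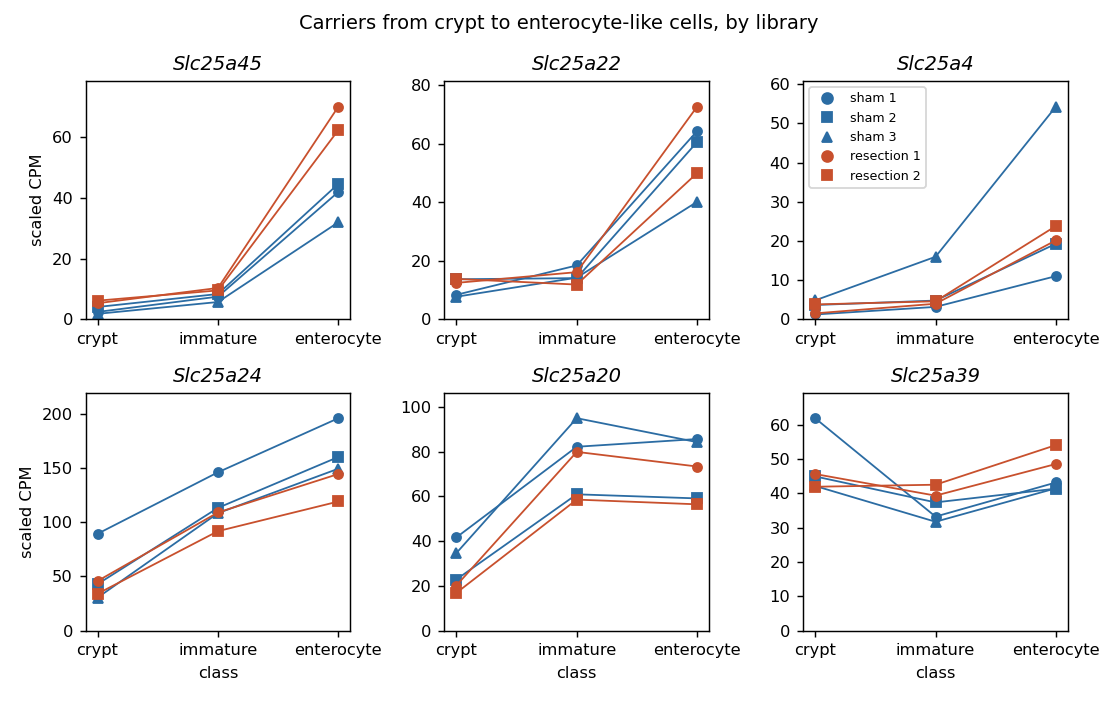
Scaled CPM (vertical axis, starting at 0) of 6 carriers in crypt, immature enterocyte-like and enterocyte-like cells; each line is 1 library, blue for sham and orange for resection. Slc25a45, Slc25a22 and Slc25a4 rose mainly between immature and enterocyte-like cells, Slc25a20 mainly between crypt and immature cells.

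The later step alone, immature to enterocyte-like, covered much of this. Between these classes 15 of 16 well-detected members were higher in enterocyte-like cells, and Slc25a20 was at -0.07 ± 0.11 (edgeR adjusted p = 0.55). Over the 36 members tested 20 were higher and 6 lower, beside 32.2% and 32.8% of all genes (65% in either direction), with a median log2 difference of 0.37 beside -0.03. Among the well-detected members, the largest differences were 2.61 ± 0.11 for Slc25a45, 1.93 ± 0.14 for Slc25a22, 1.34 ± 0.13 for Slc25a36, 1.25 ± 0.13 for Slc25a15, 1.23 ± 0.12 for Slc25a51 and 0.98 ± 0.13 for Slc25a5, and Slc25a4 differed by 2.04 ± 0.17. Slc25a17, which was named for its level in immature cells, went the other way. It was lower in enterocyte-like cells by -0.61 ± 0.14, from 20.6 ± 5.62 scaled CPM in immature cells. RLE scaling moved the median of all genes to -0.12 here and gave 19 higher and 8 lower members, beside 28.2% and 37.2% of all genes.

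Counted levels of well-detected members were mostly lower in goblet-like cells, which secrete mucus, than in enterocyte-like cells. Enterocyte RNA was also counted in goblet-like cells, as given below. Of the well-detected members 14 were lower, 0 higher and 2 did not pass, namely the citrate carrier Slc25a1 and Slc25a39. Over 36 tested members 2 were higher and 16 lower, beside 18% and 19% of all genes (37% in either direction), with a median of -0.49 beside 0.00 over all genes. Slc25a5 was at 50% of its enterocyte level (-0.96 ± 0.13, edgeR adjusted p = 5.9e-07), Slc25a3 at 55.9%, Slc25a45 at 49.6%, Slc25a25 at 53.2%, Slc25a15 at 56.8% and Slc25a20 at 59.7%. Slc25a4 was at 27.2%, with no UMI in the goblet-like cells of sham 1, and Slc25a17 differed by 0.00 ± 0.20.

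Paneth-like cells, which secrete antimicrobial peptides at the crypt base, were lower in 12 of the 16 well-detected members, and 4 did not pass: Slc25a1, Slc25a10, Slc25a25 and Slc25a39. Over 36 tested members 6 were higher and 16 lower, beside 24.1% and 26% of all genes, with a median of -0.34 beside -0.02. Slc25a5 was at 34.7% of the enterocyte level (-1.49 ± 0.13, edgeR adjusted p = 1.6e-11), Slc25a20 at 39.3%, Slc25a45 at 42.2%, Slc25a24 at 43.0%, Slc25a3 at 45.4% and Slc25a51 at 58.7%. Slc25a4 was at 21.1%, from 22 UMIs. Slc25a17 differed by -0.04 ± 0.26, and by 0.06 with RLE scaling. Before TMM scaling Slc25a5 measured 62.4 to 305 CPM there, beside 225 to 808 scaled CPM.

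A rare member was higher in both secretory classes than in enterocyte-like cells and was picked after its values were seen. Slc25a35, a carrier with no settled substrate, measured 9.78, 9.20, 13.1, 2.00 and 7.54 scaled CPM in goblet-like cells of sham 1, 2 and 3 and resection 1 and 2. In Paneth-like cells it was at 5.4, 13.5, 6.64, 6.27 and 7.06. In enterocyte-like cells it was at 0 to 0.442, so every secretory value lay above every enterocyte value. These levels rest on 32 goblet-like, 31 Paneth-like and 17 enterocyte-like UMIs, and since the gene was picked for this pattern no test is given. All epithelial cells held 148 of its UMIs, so other classes held it too. Crypt and immature cells are not compared here, and the gene is not read as particular to secretory cells.

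RNA of enterocytes was also counted in other cells. The summed level of 13 enterocyte markers was 46.3% of the enterocyte level in goblet-like, 40.5% in Paneth-like, 23.3% in immature and 7.97% in crypt cells, in scaled CPM. In plain CPM the shares were 54.5%, 11.04%, 28.8% and 11.7%, so the Paneth-like value depended most on the scaling. In the 444 T cell-like cells, which are not epithelial, it was 64.4% in plain CPM, and the 18 named members lay at 61.2% to 111% of their enterocyte level. The part of such RNA in the member levels of goblet-like and Paneth-like cells was not tested, and their levels here are not read as expression by those cells.

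Enterocyte maturity was also followed by a villus score, in cells that were still chosen by the names of their clusters. The score takes 9 genes known at the villus top, such as Ada, Nt5e and Krt20, minus 9 known at its bottom, such as Reg3b and Il18. Enterocyte-like and immature cells of each library were split into 3 equal parts by this score, which holds no Slc25a gene. Of the well-detected members 11 were higher in the upper part than in the lower one, 1 was lower and 4 did not pass. Over 34 tested members 16 were higher and 7 lower, beside 31.8% and 32.3% of 10082 genes (64.1% in either direction), with a median log2 difference of 0.30 beside -0.01. With enterocyte-like cells alone 11 of 33 tested members were higher and 6 lower, beside 23.8% and 23.2% of 9214 genes, with a median of 0.17 beside 0.01. From 15.1% to 20.2% of a library's cells lay near a boundary between parts. Enterocyte-like cells made up 31.5% to 60.9% of the lower part and 85.5% to 98.9% of the upper one. The median depth per cell was 5050 to 6612 UMIs in the lower part and 3480 to 5278 in the upper one.

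Slc25a22 was at 39.5, 24.6, 20.6, 29.8 and 19.6 scaled CPM in the lower part and 94.0, 121, 56.7, 124 and 109 in the upper part, for sham 1, 2 and 3 and resection 1 and 2. No value of the upper part fell into the range of the lower one, and the log2 difference was 1.97 ± 0.14 (edgeR adjusted p = 4.0e-09). Slc25a45 went from 24.6 ± 10.1 to 65.7 ± 19.2 (1.48 ± 0.15) and the ornithine carrier Slc25a15 from 110 ± 33.0 to 222 ± 67.2 (1 ± 0.11). Slc25a5 rose by 0.68 ± 0.11 and Slc25a51 by 0.67 ± 0.08. Among members under 20 scaled CPM, Slc25a48, reported to carry choline and picked after its values were seen, had the largest rise: it measured 7.38, 4.78, 2.42, 1.10 and 4.38 in the lower part and 36.7, 35.0, 24.8, 18.5 and 23.3 in the upper one. All 5 libraries were higher in the upper part, by 2.90 ± 0.19 on the log2 scale.

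The fat oxidation carrier Slc25a20 was the well-detected member that was lower at the upper end. It went from 106, 84.0, 116, 107 and 75.3 scaled CPM in the lower part to 76.4, 59.3, 92.6, 74.8 and 64.6 in the upper part. The ranges overlapped, but each library was lower, by -0.40 ± 0.09 (edgeR adjusted p = 0.00072). The peroxisomal Slc25a17 went from 24.3, 31, 35.5, 18.2 and 21.5 to 10.3, 14.8, 23.2, 6.36 and 3.75, by -1.31 ± 0.18. Other lower members were under 20 scaled CPM, and 2 of them are named here after their values were seen: Slc25a26 for S-adenosylmethionine (-0.98 ± 0.26) and Slc25a12 for aspartate and glutamate (-0.74 ± 0.22). Slc25a4 was higher by 0.45 ± 0.18, but without sham 3 by 0.07 and with enterocyte-like cells alone by -0.52, so that its direction depended on the cells used. With enterocyte-like cells alone Slc25a51 kept its direction at 0.16 and did not pass.

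**Figure D3:**
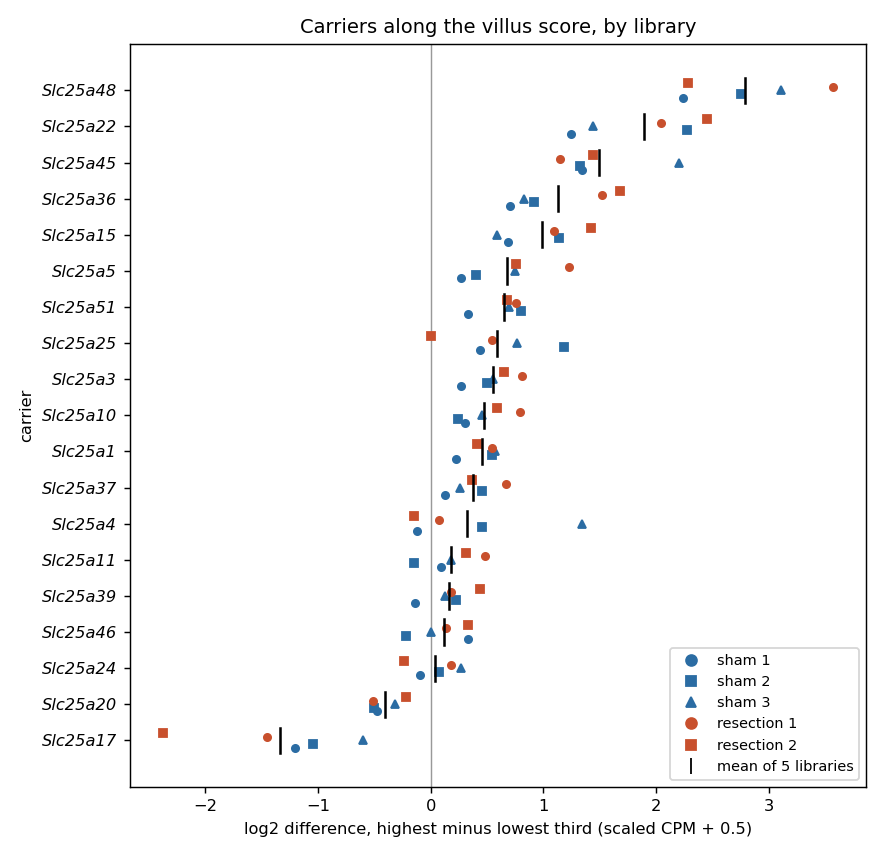
Log2 difference between the upper and the lower part of the villus score (horizontal axis, scaled CPM plus 0.5) for 19 carriers; each point is 1 library and the bar is the mean of 5 libraries. All 5 libraries lie above 0 for Slc25a48, from 2.24 to 3.57, and below 0 for Slc25a17, from -2.37 to -0.60.

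Genes around the carriers did not move as one. For comparison, 39.8% of all genes were higher and 39.8% lower in enterocyte-like than crypt cells. In the upper part of the score 31.8% were higher and 32.3% lower. Of 14 genes for the import of carrier proteins, such as Tomm5, Tomm40 and Timm10, 12 were lower in enterocyte-like than crypt cells and 1 higher (median log2 difference -0.90), and all 13 tested were lower in the upper part of the score (-0.75). All 5 tested mitochondrial one-carbon enzymes, such as Shmt2 and Mthfd2, were lower in enterocyte-like cells (median -2.52). Of 13 mitochondrially encoded genes 12 were higher in enterocyte-like cells and 8 higher in the upper part. Nuclear genes of oxidative phosphorylation changed direction with the contrast, with 40 of 75 higher and 9 lower against crypt cells, but 1 higher and 59 lower in the upper part. Of 12 genes of carnitine-dependent fat oxidation 11 were higher than in crypt cells, and in the upper part 8 were lower and 2 higher, with Cpt1a at -1.19 ± 0.11 and Crat at 1.11 ± 0.12. Uncoupling protein gene Ucp2, a family member under another symbol, was at 0.10 ± 0.10 against crypt cells and lower in the upper part (-0.27 ± 0.07).

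Surgery was compared within each class. No member and no gene passed the threshold in edgeR in enterocyte-like, immature, crypt or all epithelial cells (0% called in each). At an unadjusted p below 0.05, 4 of 34 members and 510 of 10301 genes (4.95%) lay in enterocyte-like cells, 0 members and 158 genes (1.56%) in immature cells, 2 members and 139 genes (1.42%) in crypt cells, and 3 members and 330 genes (2.81%) in all epithelial cells. DESeq2 called 75, 1, 3 and 36 genes in these sets (0.728%, 0.0099%, 0.0308% and 0.307%), with 1 member, Slc25a36, in enterocyte-like cells. In enterocyte-like cells both resection libraries lay above the sham range for 6 members and below it for 3, beside 10.5% and 7.65% of genes. The counts were 6 and 2 members in immature cells (6.28% and 4.82% of genes), 3 and 3 in crypt cells (6.11% and 4.94%) and 5 and 3 in all epithelial cells (7.91% and 6.26%). Different clusters held the cells of each library: 2359 of 4462 enterocyte-like cells of resection 2 lay in a cluster led by Fabp2 and Cyp3a11, 1135 and 915 of 2359 of resection 1 in clusters led by Fabp1 and Abcb1a, 644 of 695 of sham 1 in 1 led by Gm26870, 1349 of 2400 of sham 2 in 1 led by H2-Aa, and 802 of 1319 of sham 3 in 1 led by Ccl20.

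The pyrimidine nucleotide carrier Slc25a36 had the largest difference of the well-detected members. It measured 43.6, 34.0 and 28.1 scaled CPM in enterocyte-like cells of sham 1, 2 and 3 and 106 and 74.9 in resection 1 and 2. Both resection libraries lay above all sham libraries, and the difference was alike within the sets, 1.28 in the first and 1.27 in the second. The log2 difference was 1.36 ± 0.28 (edgeR unadjusted p = 0.00173, adjusted p = 0.404). Over 15 alternatives it stayed between 0.92 and 1.59, with adjusted p from 0.00284 to 1. It passed with DESeq2 (adjusted p = 0.0183), without the low-count filter and with the set of libraries as a term (adjusted p = 0.0385). These fits called 0.728%, 1.24% and 0.223% of genes. With a block for the replicate number it also passed, where 1.58% of genes did, and in all epithelial cells the block called 2 members and 3.05% of genes. In immature cells it was at 26.9, 23.9, 18.3, 38.0 and 28.8 (log2 difference 0.56 ± 0.26), and in crypt cells the groups overlapped (0.47 ± 0.33).

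Slc25a45 was at 47.5, 50.5 and 36.0 scaled CPM in sham and 78.3 and 70.6 in resection. The groups did not overlap, which was the rule for naming it, and the log2 difference was 0.74 ± 0.25 (edgeR adjusted p = 0.879). Its resection libraries were also above the sham range in immature and crypt cells. The crypt values rest on few UMIs, at 4.48, 6.01 and 2.81 plain CPM in sham and 9.56 and 9.22 in resection. Slc25a39 (0.28 ± 0.21) and Slc25a46 (0.26 ± 0.22) lay above the sham range by small differences, and Slc25a24 below it (-0.36 ± 0.27). Slc25a17 measured 15.7, 20.6 and 26.2 in sham and 9.62 and 9.57 in resection, so that both resection values were lower. Its log2 difference was -1.12 ± 0.28 (edgeR unadjusted p = 0.00461, adjusted p = 0.569), with -0.70 in the first set and -1.26 in the second.

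For the most abundant carriers the groups overlapped. Slc25a5 was at 602, 2299 and 2476 scaled CPM in sham and 1293 and 1773 in resection, and its difference was 1.10 in the first set and -0.43 in the second. Slc25a3 was at 608, 1149 and 1062 in sham and 911 and 1207 in resection, with overlap (0.17 ± 0.37). Slc25a4 ranged from 12.4 to 61.0 in sham, and resection lay inside that range (-0.37 ± 0.59). None of these 3 had a direction that held under every alternative.

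**Figure D4:**
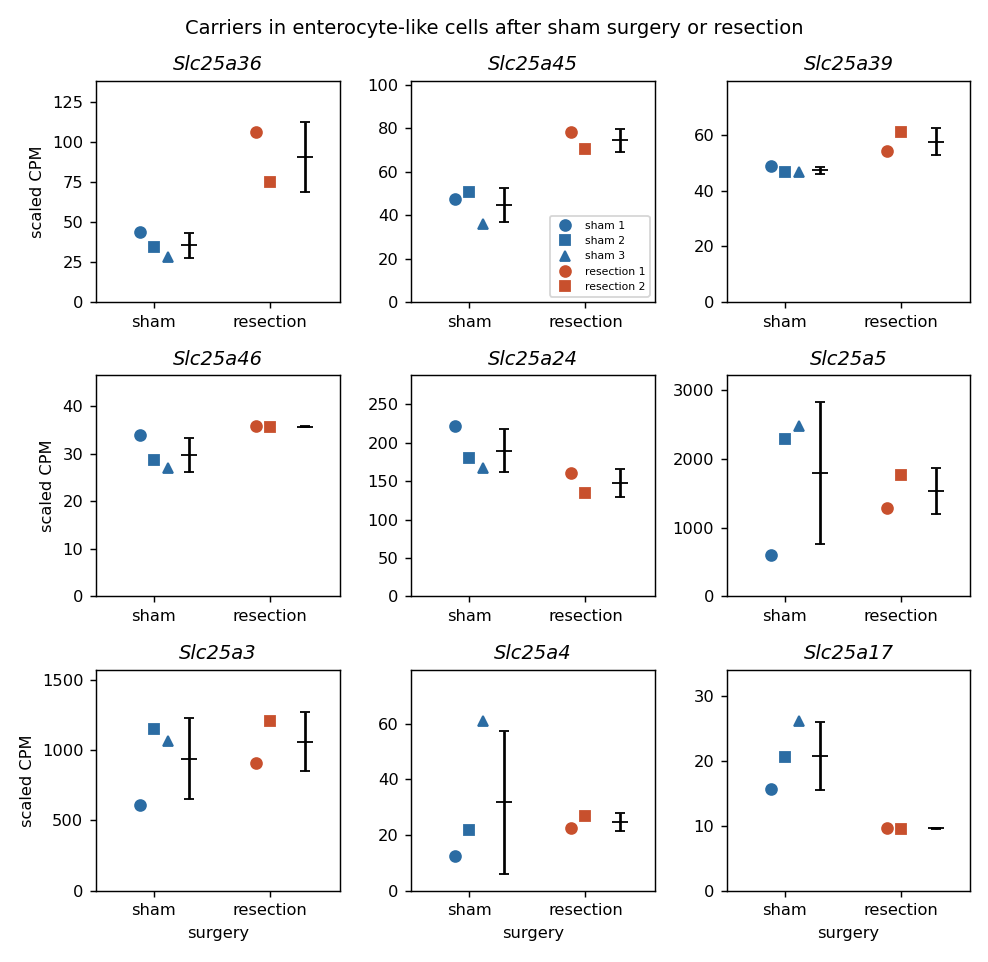
Scaled CPM (vertical axis, starting at 0) of 9 carriers in enterocyte-like cells by surgery; each point is 1 library and the bars are mean ± SD (n = 3 sham, n = 2 resection). Slc25a36 and Slc25a45 lie higher in both resection libraries, at 74.9 or above and 70.6 or above, and Slc25a17 lower, at 9.62 or below.

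Whether the villus pattern differed with surgery was tested by an interaction, a test added after the data were seen. Of 34 members 1 passed, beside 2.91% of 10202 genes (0.559% in the higher and 2.35% in the lower direction), and without a low-count filter 4 of 43 passed, beside 4.18% of genes. Slc25a36 was at 30.8, 23.9 and 18.5 scaled CPM in the lower part of sham 1, 2 and 3 and at 50.4, 45.7 and 33.3 in the upper part. In resection 1 and 2 it was at 45.3 and 36.5 in the lower part and 131 and 118 in the upper part. The rise was 0.70 to 0.92 on the log2 scale in the sham libraries and 1.52 and 1.68 in the resection libraries, so the groups did not overlap. The interaction was 0.77 ± 0.19 (edgeR adjusted p = 0.0386). The call was lost with DESeq2 (adjusted p = 0.113), which called 2.36% of genes, and when any 1 of the 5 libraries was left out (0.66 to 0.86).

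Slc25a17 fell more steeply in the resection libraries, by -1.45 and -2.37 beside -1.20, -1.05 and -0.60 in sham 1, 2 and 3. The interaction was -1.10 ± 0.32 and did not pass (edgeR adjusted p = 0.078); it passed without resection 1 (-1.61). Differences of surgery effect between enterocyte-like cells and crypt cells, or immature cells, were called for 0 of 35 and 0 of 34 members, beside 0.00946% and 0% of genes. At an unadjusted p below 0.05 there were 5 and 7 members, beside 703 of 10566 genes (6.65%) and 1187 of 10547 (11.3%). DESeq2 called 0 members in both, beside 0.00946% and 0.294% of genes. The class interaction of Slc25a36 was 1 ± 0.24 against crypt cells (adjusted p = 0.32) and 0.87 ± 0.17 against immature cells (adjusted p = 0.11).

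**Figure D5:**
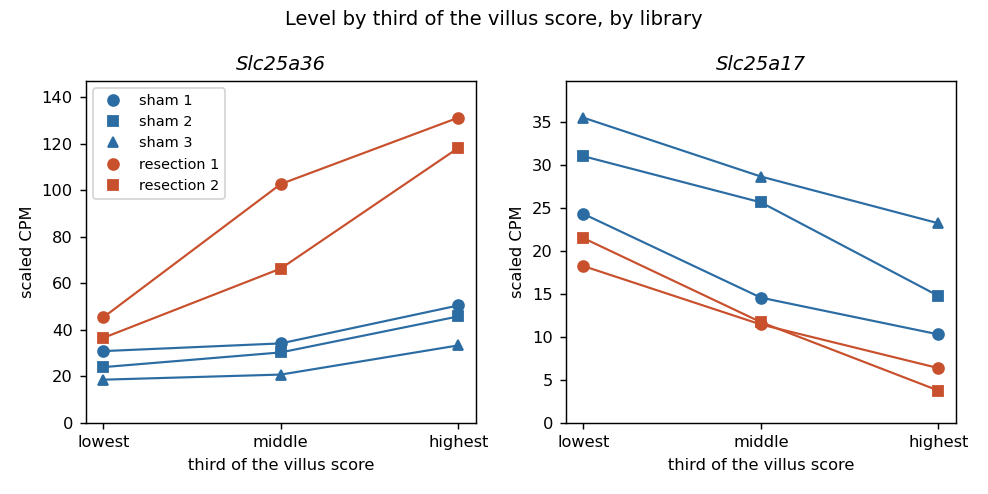
Scaled CPM (vertical axis, starting at 0) of Slc25a36 and Slc25a17 in the lower, middle and upper part of the villus score; each line is 1 library, blue for sham and orange for resection. Slc25a36 averaged 124.6 in the upper part of the resection libraries and 43.1 in that of the sham libraries.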

How the data were processed

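Each library came as 1 matrix of unnormalised UMI counts, as deposited by the authors. Per the labels' descriptions, libraries were made with 10x 3′ chemistry and matrices with Cell Ranger, its version given with a question mark. The build is GRCm38 (mm10), per the submitters' processing notes. The members and lists were chosen with earlier results of these data known.

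Of 19404 cells, 18955 passed filters of 500 or more genes and up to 20% mitochondrial UMIs. Doublets (720, 3.80%) were removed at 0.8% per 1000 cells of a library, from 2 simulated doublets per cell. Counts scaled to 10000 per cell gave 2000 variable genes, 30 principal components and 20 neighbours for Leiden clustering (leidenalg 0.10.2, resolution 1, scanpy 1.11.5, scikit-learn 1.9.0). Member genes, mitochondrial genes and the pathway lists were left out, and 21 clusters were named from markers.

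Counts were summed per library and class or score part and analysed in R 4.3.3 by edgeR 4.0.16, with TMM scaling, filterByExpr and a two-sided quasi-likelihood F-test, adjusted by Benjamini-Hochberg over all genes at 0.05; class and villus contrasts had the library as a block. Standard errors are the log2 difference divided by the square root of F. The script was tested on simulated data. DESeq2 1.42.0, RLE scaling, no filter, leaving out each library, other clusterings, no doublet removal, the set of libraries as a term and a replicate block were alternatives. For class and villus contrasts, up to 6 well-detected members per direction past the threshold were named by size. For surgery, named members were those past the threshold, those with both resection libraries outside the sham range (up to 6 per direction) and the 3 most abundant, to which Slc25a4 and Slc25a17 were added as members that reach 20 CPM in a single class. Promoter windows are from RefSeq, GRCm38.p6. Gene positions matched for all 47 members.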

Additional observations from a re-analysis of the deposited data

Results flagged for a closer look

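In 6 of 41 sets of 5 libraries, 1 library stood far from the other 4. Chance gives about 1 in 20 such sets. All values are log2 differences per library.

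Between enterocyte-like and immature cells, Slc25a5 was at 1.31 in resection 1 and at 0.87 to 0.91 in the others. Between goblet-like and enterocyte-like cells, Slc25a25 was at -1.77 in sham 1, from 32 goblet-like cells, and at -0.83 to -0.57 elsewhere. Between Paneth-like and enterocyte-like cells, sham 3 was at -2.25 for Slc25a51 and at -6.78 for Slc25a4, with -0.74 to -0.27 and -2.51 to -0.77 in the other libraries. No Slc25a4 UMI was counted in the Paneth-like cells of sham 3, so its value depends on the 0.5 CPM added before the logarithm. Along the villus score, Slc25a45 was at 2.20 in sham 3 (1.15 to 1.44 elsewhere) and Slc25a51 at 0.33 in sham 1 (0.68 to 0.80 elsewhere).

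The rise of Slc25a36 along the villus score had an interaction with surgery of 0.77, called by edgeR in a test added after the data were seen. That test called 1 of 34 members, beside 2.91% of genes, so the count is near that of all genes. The call for Slc25a36 did not hold with DESeq2 or with any 1 library left out.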

How the results depend on the processing

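With 2 resection libraries, a surgery difference is measured from few libraries, and members under 20 scaled CPM rest on few UMIs. Of 52 results for named members, 39 were past the threshold. Over their alternatives 565 values kept direction and call, 8 gained a call, 11 lost one and 18 changed sign. Of the counts of called genes or members, 212 stayed within 1.5 times and 34 moved.

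Surgery called 0 genes and 0 members in each set of cells. In enterocyte-like cells 1 member was called with DESeq2, without a low-count filter, with the set of libraries as a term and with the replicate block. Genes called there were 75 with DESeq2, 196 without a filter, 23 with the set term, 171 with the block, 1 in the upper part of the villus score alone and 0 to 2 with 1 library left out. In immature cells they were 1 with DESeq2, 2 without a filter, 105 with the block and 1 without doublet removal, and in crypt cells 3, 17 and 4 with DESeq2, no filter and the block. In all epithelial cells they were 36 with DESeq2, 18 without a filter, 3 with the set term and 372 with the block, which called 2 members, Slc25a36 and Slc25a48.

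The villus interaction called 1 member and 297 genes. It called 0 members and 241 genes with DESeq2, 4 members and 670 genes (4.18%) without a filter, and 0 to 1 members and 93 to 281 genes with 1 library left out. The genes fell to 180 without sham 3, 93 without resection 1 and 149 without resection 2. The interaction against immature cells called 0 members and 0 genes, 2 members and 313 genes (1.89%) without a filter, and 0 to 1 members with 1 library left out. The 1 member was called without resection 2, where 231 of 10933 genes (2.11%) were.

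These values changed sign against the reported one. In the surgery comparison, Slc25a5 was at 0.25 with the set term, 0.37 with the block and -0.64 to 0.077 with 1 library left out. Slc25a3 was at -0.0606 without sham 1 and -0.0479 without resection 2, and up to 0.37 without the others, and Slc25a4 at 0.55 with the block, -0.739 to 0.51 with 1 library left out (0.51 without sham 3) and 0.19 in the lower part alone. Between goblet-like and enterocyte-like cells Slc25a17 was at -0.0302 without a filter, -0.21 with genes scaled within libraries, and -0.12 to 0.136 with 1 library left out. Between Paneth-like and enterocyte-like cells it was at 0.0492 with DESeq2, 0.0574 with RLE scaling, and -0.329 to 0.15 with 1 library left out. Slc25a4 along the villus score was at -0.52 with enterocyte-like cells alone. The cause was not tested.

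Replicate numbers are shared by sham and resection libraries 1 and 2, while sham 3 has no partner. Deviations from group means correlated by 0.53 for the pair numbered 1 and 0.24 for the pair numbered 2 over 10301 genes, and by 0.44 for sham 3 with resection 2, which share no number. Deviations of the 2 resection libraries from their own mean are exact opposites by construction. The correlations are therefore tied to each other and are not separate observations. With only 2 pairs the libraries are taken to share a number, not an animal, and a call under the replicate block is not read as pairing. With the block Slc25a36 was at 1.21 in enterocyte-like cells.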
